A study of Canis lupus familiaris with 24 samples.

Results

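*Ngn3* and *NeuroD1*, a pair of endocrine basic helix-loop-helix (bHLH) transcription factors, were chosen by gene symbol from the RT-qPCR tables of canine insulin-producing cell (IPC) induction. They are 2 of the 13 genes with values on day 13 and 2 of 26 genes in the series, and neither has values on another day. The tables list them as neurogenin 3 (NEUROG3, XM_546140.1) and neuronal differentiation 1 (NEUROD1, XM_005640377.3). Their values come from 8 of the 24 samples, namely 4 lines of canine adipose-derived mesenchymal stem cells (cAD-MSCs) kept undifferentiated in DMEM and the IPCs made from the same 4 lines and collected on day 13. Each line came from a different donor dog. The IPCs had first had 3 days of induction, with Chir99021 followed by Activin A and with sodium butyrate. Over the following 5 days the medium held the growth factors FGF2 and EGF at first. DAPT, dorsomorphin, a TGFβ inhibitor and nicotinamide came after them. Taurine was present throughout these days, and retinoic acid was also given. In the last 5 days the medium held forskolin, Glp-1 and inhibitors of PI3K and TGFβ, again with nicotinamide and taurine. By the methods of the study, the induced cells were also floating colonies in serum-free medium that were later enclosed in alginate, whereas the stem cells grew attached with serum, and these differences cannot be told apart from the induction factors.

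Both proteins bind E-box motifs in DNA as dimers with ubiquitous E proteins. *Ngn3* is switched on briefly in the progenitors of the pancreatic endocrine lineage and is required for islet cells to form. Notch signalling holds it down through the repressor *Hes1*, and DAPT, a γ-secretase inhibitor, blocks Notch. *NeuroD1* is a direct target of Ngn3 that stays on in islet cells, where it activates the insulin gene.

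The first comparison asked whether the IPCs expressed more *Ngn3* than undifferentiated cells of the same day. Expression is given as the authors' ratio of the gene to the reference gene *Gapdh*, with the average of the 4 controls set to 1. On this scale *Ngn3* was 0.481 in the control of line 1, 1.24 in line 2, 0.831 in line 3 and 1.45 in line 4. In IPCs it was 39.8, 40.6, 43.5 and 55.2 in the same order of lines. Every IPC sample stood above every control, and the lowest IPC value was 27.5 times the highest control. *Ngn3* rose relative to *Gapdh* to 44.8 ± 7.13 (SD, n = 4) from 1 ± 0.431 (exact two-sided Mann–Whitney U test, p = 0.0286, adjusted over the day 13 genes 0.0338). An exact test of 4 against 4 cannot give a smaller p than 0.0286. It leaves out the pairing of samples by line. An exact sign-flip test of the ratios within lines gave p = 0.125, the smallest possible for 4 pairs. This separation was common among the genes tested, since 11 of 13 (84.6%) were higher in IPCs without overlap.

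*NeuroD1*, on the same scale, was 0.559, 1.41, 0.724 and 1.31 in the controls of lines 1 to 4. The IPCs of these lines had 726, 1249.7, 774 and 1066. No value of one group came near the other, and the lowest IPC sample was 515 times the highest control. *NeuroD1* rose relative to *Gapdh* to 954 ± 248 (SD, n = 4) from 1 ± 0.422 (exact two-sided Mann–Whitney U test, p = 0.0286, adjusted over the day 13 genes 0.0338). It ranked 1 of 13 by this measure and *Ngn3* ranked 4, behind *MafA* and *Glis3*. These sizes assume that template doubles in each cycle. With an amplification base of 1.8 in place of 2 they were 25.4 for *Ngn3* and 338 for *NeuroD1*.

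**Figure D1:**
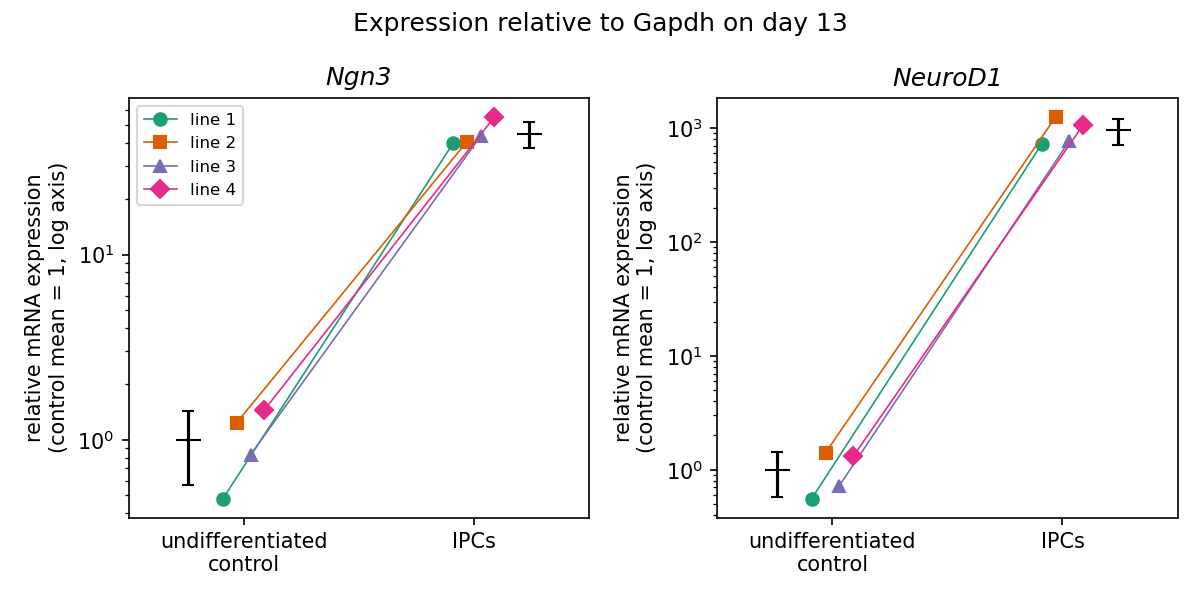
Relative mRNA expression of *Ngn3* and *NeuroD1* on day 13 (log axis, mean of the 4 controls = 1), with a thin line joining the control and the IPCs of each cAD-MSC line and black bars for the mean and SD (n = 4). All IPC samples lie above all controls, at 39.8 to 55.2 for *Ngn3* and at 726 to 1249.7 for *NeuroD1*.

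The lines differed among themselves less than the groups did. Within a line, the IPCs had 82.8, 32.8, 52.4 and 38.1 times the *Ngn3* of their own control in lines 1, 2, 3 and 4. For *NeuroD1* these values were 1299, 887, 1069.7 and 815 times. In lines 2 and 4 the *Ngn3* rise came from *Gapdh* alone, as described below. Line 1 had the lowest value of both genes in both groups, and also the largest change within a line. The order of the lines for *NeuroD1* (1, 3, 4, 2 from low to high) was the same in controls and IPCs, while for *Ngn3* lines 2 and 3 changed places. The coefficient of variation of *Ngn3* was 43.1% in controls and 15.9% in IPCs, and that of *NeuroD1* was 42.2% and 26.0%. These differences between lines were not tested.

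The threshold cycle (Ct) is the PCR cycle at which fluorescence passes a set level, so an earlier Ct stands for more template. In lines 1 to 4 the controls crossed it for *Ngn3* at 35.50, 34.02, 34.62 and 33.69 cycles and the IPCs at 34.16, 34.02, 34.22 and 33.69 cycles. All IPC values lay within the range of the controls, and in lines 2 and 4 the control and the IPCs have the same Ct to 2 decimals. Such an identity occurs in 3 of the 52 pairs of control and IPC values of the 13 genes, the other one being *Rfx6* in line 3. Whether these were separate measurements cannot be told from the deposited values, and the Ct-only value that follows rests in part on them. So do the values of *Ngn3* relative to *Gapdh* and of *NeuroD1* over *Ngn3*. In lines 2 and 4 the rise of *Ngn3* within the line, 32.8 and 38.1 times, came wholly from the difference in *Gapdh*. Without a reference gene, *Ngn3* in IPCs was 1.23 ± 0.213 (SD, n = 4) against 1 ± 0.479 in controls, a difference within the spread between lines (exact two-sided Mann–Whitney U test, p = 0.657). It was 1.75 in lines 1 and 3 alone, where the Ct differs. A limma model of the Ct values of all 13 genes was fitted without blocking by line. In it *Ngn3* was 0.435 cycles earlier in IPCs, with a 95% interval from -0.21 to 1.08 (adjusted p = 0.218). The rise of *Ngn3* is therefore stated only relative to *Gapdh*.

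*NeuroD1* moved in Ct as well. In lines 1 to 4 it had a Ct of 36.98, 35.67, 36.82 and 35.88 cycles in controls and of 31.91, 30.82, 31.69 and 31.36 cycles in IPCs. The latest IPC sample came 3.76 cycles ahead of the earliest control. The control values, against which each rise of *NeuroD1* is measured, were late signals. Without a reference gene, *NeuroD1* was 28.7 ± 9.93 (SD, n = 4) against 1 ± 0.438 (exact two-sided Mann–Whitney U test, p = 0.0286). By Ct alone 3 of the 13 genes (23.1%) were higher in IPCs without overlap, namely *NeuroD1*, *MafA* and *Glis3*, and 6 (46.2%) were lower. The limma model gave *NeuroD1* a Ct that was 4.89 cycles earlier, with a 95% interval from 4.25 to 5.54. By adjusted p in that model 3 genes (23.1%) were earlier in IPCs and 7 (53.8%) were later.

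The *Gapdh* signal itself differed between the groups. Its Ct, recovered by adding log2 of a gene's ratio to the Ct of that gene, was 22.0 ± 0.0898 cycles (SD, n = 4) in controls and 27.2 ± 0.124 cycles in IPCs for the *Ngn3* values. For the *NeuroD1* values it was 21.7 ± 0.0982 and 26.8 ± 0.146 cycles. The mean of both came 5.12 cycles later in IPCs, with no overlap between the groups (exact two-sided permutation test, p = 0.0286). A shift of this kind was not the same for all genes of these samples. The *Gapdh* that goes with *Glut2* and *Glp1r* moved from 22.6 to 24.5 cycles, a shift of 1.89 cycles, that of *Nkx2.2* and *Rfx6* by 5.64 cycles, and that of *Glis3* and *MafA* by 5.14 cycles. The same sample thus has more than one *Gapdh* value. Those of *Glut2* and *Glp1r* lay close to a whole number of cycles from those of *Glis3* and *MafA* in every sample. For *Glut2* and *Glis3* they were 22.50 and 21.50 in the control of line 1 and 24.77 and 26.77 in its IPCs. In the IPCs of line 4 they were 24.14 and 27.13. Why the values differ was not tested. For the group shift, less RNA in the reaction, fewer cells, less *Gapdh* mRNA per cell and differences between *Gapdh* runs cannot be told apart. The amount of RNA used for cDNA is not given in the sources used here. The *Gapdh* values that go with *Ngn3* are also those of *Insulin*, *Glucagon* and *Epac2*, within 0.00695 cycles in every sample, and those that go with *NeuroD1* are shared with *Nkx6.1* and *Isl1*. The size of the rise depended on which *Gapdh* values were used, in checks added after the data were seen. With those of *Glut2* and *Glp1r*, *Ngn3* was 4.23 and *NeuroD1* 102 relative to the controls, still without overlap (exact two-sided Mann–Whitney U test, p = 0.0286 each). With the values exchanged between the members, whose shifts were alike, *Ngn3* was 41.5 and *NeuroD1* 1024.6.

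**Figure D2:**
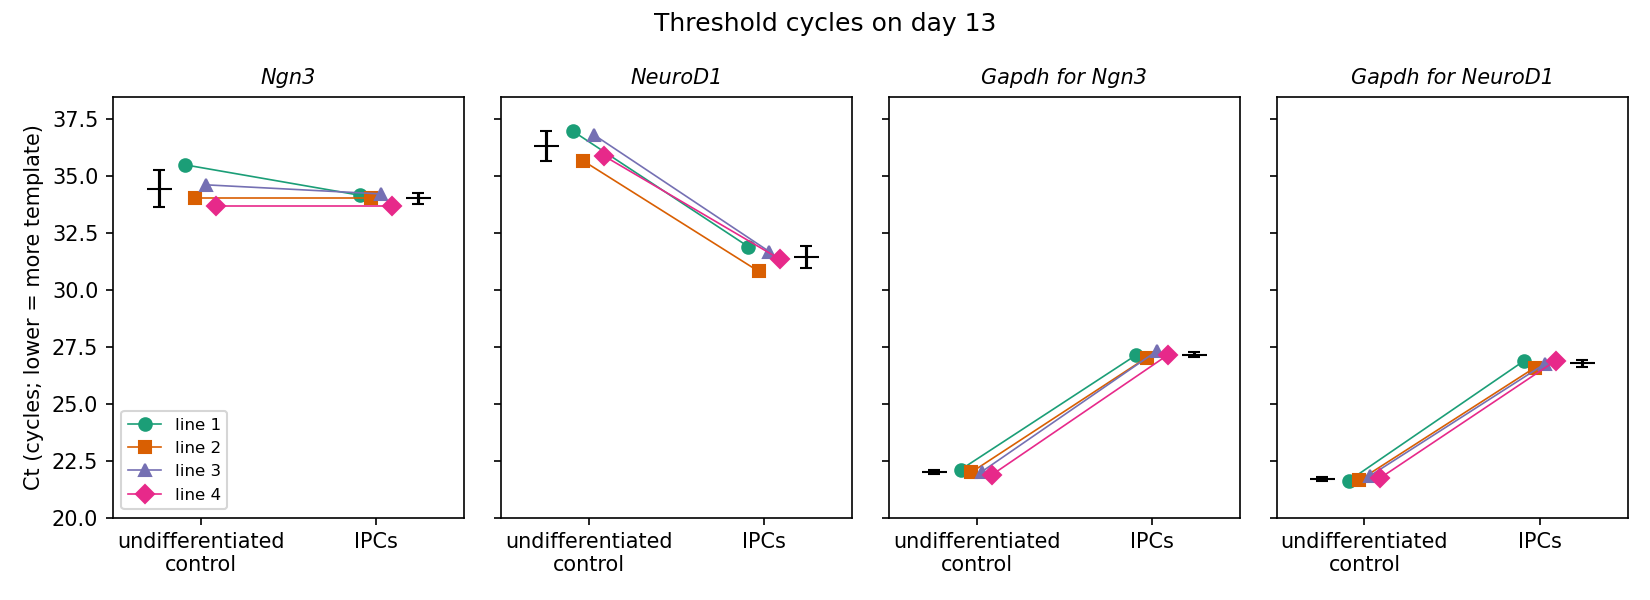
Ct in cycles of *Ngn3*, *NeuroD1* and the *Gapdh* that goes with each, in controls and IPCs of the 4 lines on day 13, with black bars for the mean and SD (n = 4). *Ngn3* stays between 33.69 and 35.50 cycles in both groups, *NeuroD1* is earlier in all IPCs, and both *Gapdh* panels are later in all IPCs.

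On the log2 scale, the change of each gene relative to *Gapdh* is the sum of its own Ct shift and the *Gapdh* shift. For *Ngn3*, the mean change of 5.59 consisted of 0.435 from its own Ct and 5.16 from *Gapdh*, so that *Gapdh* made up 92.2% of it. For *NeuroD1*, the change of 9.97 consisted of 4.89 from its own Ct and 5.07 from *Gapdh*, which made up 50.9%. Over all 13 genes, the median log2 change was 4.79 relative to *Gapdh* and -0.82 by Ct alone. Both members lay above the median on either scale. With *Gapdh* replaced by the average Ct of the 12 remaining genes, *NeuroD1* in IPCs was 55.9 times the controls (exact two-sided Mann–Whitney U test, p = 0.0286). *Ngn3* was 1.81 times the controls on that reference and its groups overlapped (exact two-sided Mann–Whitney U test, p = 0.0571).

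**Figure D3:**
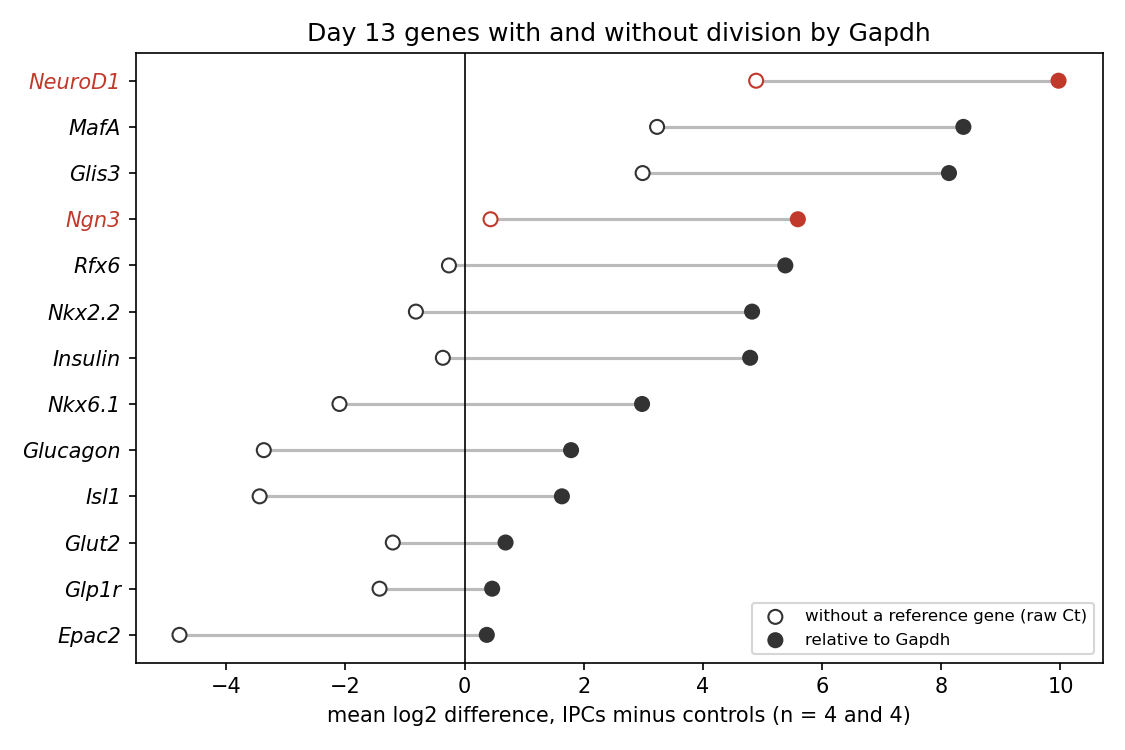
Mean log2 difference between IPCs and controls (n = 4 each) of the 13 genes of day 13, with filled points for values relative to *Gapdh* and open points for Ct alone, and *Ngn3* and *NeuroD1* in red. The open point of *Ngn3* is at 0.435 and that of *NeuroD1* at 4.89, while their filled points are at 5.59 and 9.97.

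The members were next set against each other within each sample, which needs no reference gene. The Ct of *NeuroD1* minus that of *Ngn3* was 1.48, 1.65, 2.2 and 2.19 cycles in the control samples of lines 1 to 4. In the IPCs it was -2.25, -3.20, -2.53 and -2.33 cycles. *NeuroD1* thus crossed the threshold after *Ngn3* in all 4 controls and before it in all 4 IPC samples. As a ratio set to 1 in the controls, *NeuroD1* over *Ngn3* was 22.2 ± 7.35 (SD, n = 4) in IPCs against 1 ± 0.256 (exact two-sided Mann–Whitney U test, p = 0.0286). Among the IPCs it ran from 17.1 in line 1 to 33.0 in line 2, a line whose control and IPCs have the same *Ngn3* Ct. Taken from the ratios to *Gapdh* the value was 21.1, and with an amplification base of 1.8 it was 13.8. The limma estimate, from a model that did not block by line, was 4.46 on the log2 scale, with a standard error of 0.288 (adjusted p = 2.65e-10). That p draws on the variance of all features fitted. The exact sign-flip test within lines gave p = 0.125, the smallest possible for 4 pairs. Because separate PCR assays can differ in efficiency, the level of one gene is not read against the level of the other, only the shift between the groups.

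**Figure D4:**
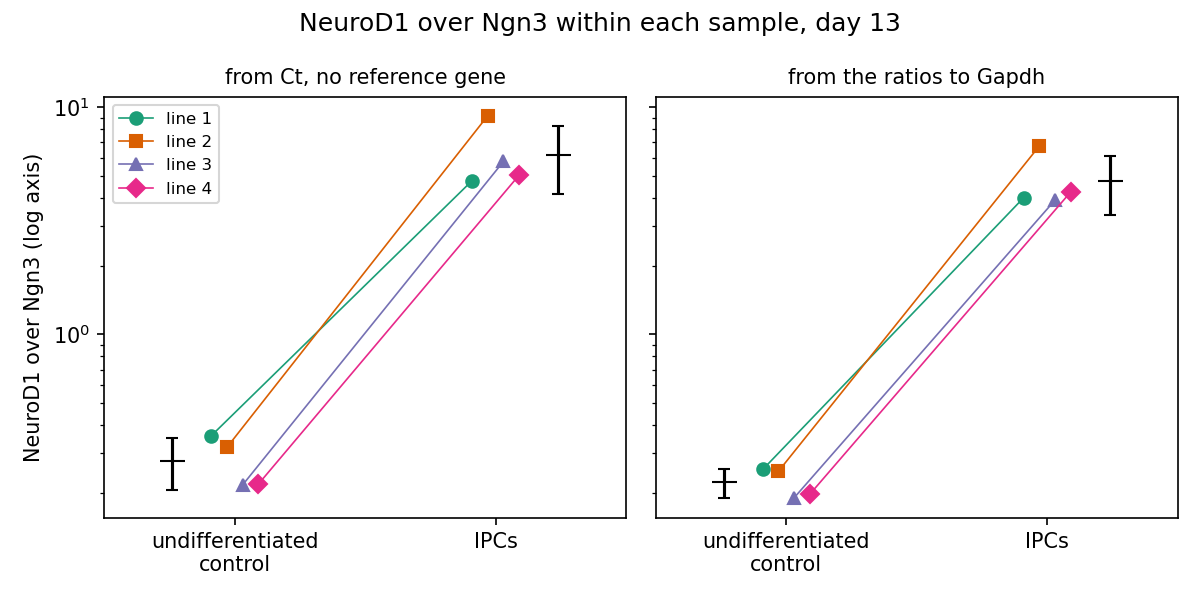
*NeuroD1* over *Ngn3* in each sample on day 13 (log axis), from Ct on the left and from the ratios to *Gapdh* on the right, with a thin line for each cAD-MSC line and black bars for the mean and SD (n = 4). On the left the controls lie between 0.218 and 0.358 and the IPCs between 4.76 and 9.19.

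Ct differences from the other genes place the members within the day 13 set. They take the template to be the same for all genes of a sample. The *Gapdh* shift was not the same for all genes, being 1.89 cycles for *Glut2* and *Glp1r*. *NeuroD1* rose against 12 of the 12 other genes without overlap between the groups, from 3.22 times against *MafA* and 3.40 times against *Glis3* to 809 times against *Epac2*. *Ngn3* rose against 6 of 12, among them *Nkx6.1* (4.23 times) and *Isl1* (13.2 times), both homeodomain factors of islet cells. It fell against *NeuroD1*, *MafA* and *Glis3*, to 0.0458, 0.135 and 0.145 times. Against *Nkx2.2*, *Insulin* and *Rfx6* its groups overlapped, with values of 1.91, 1.68 and 1.31. These are 23 pairs in all, and the 20 without overlap had an adjusted p of 0.0329 (exact two-sided Mann–Whitney U test, Benjamini-Hochberg). All pairs of a member use the same Ct values of that member, so they are not separate evidence. *NeuroD1* ranked 1 of 13 by Ct alone, and its rise against all other genes largely restates that rank.

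The genes most like each member were found by the root mean square difference of log2 relative expression over the 8 samples. For *Ngn3* they were *Insulin*, the hormone gene, at 0.63, and *Rfx6*, a transcription factor needed for endocrine cells to form, at 0.71. *Ngn3* and *Insulin* share their *Gapdh* values, but the same genes were also nearest by Ct alone, at 0.62 and 0.90. On that scale *Ngn3*, *Insulin* and *Rfx6* each overlapped between the groups, with mean log2 changes of 0.435, -0.365 and -0.26. Nearness here thus means a similar group shift, and shared regulation was not tested. For *NeuroD1* they were *MafA*, an activator of the insulin gene in mature β cells, at 1.27, and *Glis3*, a zinc finger factor of β cells, at 1.33. By Ct alone *MafA* and *Glis3* were again the nearest, at 1.30 and 1.40. Of the 12 other genes, *NeuroD1* was the ninth nearest to *Ngn3*, and *Ngn3* the third nearest to *NeuroD1*, at 3.11.

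Other endocrine genes, from fixed lists, were counted on the same samples. All 6 transcription factors (*Nkx2.2*, *Isl1*, *Nkx6.1*, *Rfx6*, *MafA* and *Glis3*) rose relative to *Gapdh* without overlap, with a median log2 change of 5.10, against 4.79 over all 13 genes. By Ct alone 2 of the 6 (*MafA* and *Glis3*) were higher, 2 (*Nkx6.1* and *Isl1*) were lower and 2 overlapped. Of the 5 hormone and glucose or incretin genes, *Insulin*, *Glucagon* and *Glut2* rose relative to *Gapdh*, and *Glp1r* and *Epac2* overlapped. *Glut2* and *Glp1r* were divided by the *Gapdh* values with the smaller shift. Divided instead by one shared *Gapdh*, the median Ct over the 13 genes, they were 15.6 and 12.5 times the controls, both without overlap (a check added after the data were seen), where each gene's own *Gapdh* gave 1.62 and 1.35. By Ct alone 0 of the 5 were higher and 4 were lower, with *Insulin* overlapping. Among the markers of the labelled cell type, *Insulin* was a late signal in both groups. Its Ct was 36.5 ± 0.402 cycles (SD, n = 4) in controls and 36.9 ± 0.0550 in IPCs. *Glucagon* had 36.3 ± 0.579 cycles in controls and 39.7 ± 0.203 in IPCs, and *Glut2* had 37.4 ± 0.204 and 38.6 ± 0.337. The IPC values of these 2 genes lie near the highest Ct recorded (40). *Insulin*, *Glucagon* and *Glut2* are the genes of mean Ct 35 or more in both groups. Without them, 8 were higher and 0 lower relative to *Gapdh* without overlap. The others left, *Glp1r* and *Epac2*, overlapped, and with all genes the count was 11 of 13 (84.6%).

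The genes listed as acting before *Ngn3* (*Hes1*, *Sox9*, *Hnf6* and *Ptf1a*) have values only on day 8. These come from pancreatic endocrine (PE) cells and their own controls, so they cannot be set against *Ngn3* in the same sample. *Hes1* was 0.0778 to 0.112 in the PE cells of the 4 lines and 0.141 to 1.92 in the controls, relative to *Gapdh* and the control mean, so it was lower without overlap (exact two-sided Mann–Whitney U test, p = 0.0286), as was 1 of the 6 genes of that day (16.7%). *Sox9*, *Hnf6* and *Ptf1a*, which mark pancreatic progenitors, were all 3 higher without overlap, as were 4 of 6 genes (66.7%). By Ct, *Hes1* lay at 26.35 to 27.54 cycles in controls and at 29.17 to 29.29 in PE cells. *Sox9* lay at 30.09 to 30.33 cycles in controls and at 27.21 to 29.21 in PE cells. The *Gapdh* values of day 8 were not examined. The controls of *Hnf6* and *Ptf1a* had Ct values of at least 39.9 cycles, at or just below the highest Ct recorded (40). *Ptf1a* came as late as 39.44 in PE cells. The PCR ran for 45 cycles, and whether 40 marks an absent signal is not given in the sources used here. The size of the rise of *Hnf6* and *Ptf1a* is therefore uncertain, and only a lower bound if 40 does mark an absent signal.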

How the data were processed

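RNA was extracted with TRIzol and Direct-zol, reverse transcribed with ImProm-II and amplified with SYBR Green. The authors deposited Ct values in cycles, to 2 decimals and not normalised, and the linear ratio of each gene to *Gapdh* in the same sample (2 to the power of minus ΔCt), to 7 decimals. Wells per sample, efficiencies and RNA input are not given in the sources used here. Ct has no depth in counts, and its precision is lowest for late signals. The authors' fold changes, also deposited, were not used.

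The *Gapdh* Ct was calculated as Ct + log2(ratio). Groups came from the sample titles. Exact Mann–Whitney and permutation tests were enumerated in Python 3.11.15 (numpy 2.4.6, pandas 2.3.3, matplotlib 3.10.9), and all 13 genes of day 13 were fitted with limma 3.58.1 (R 4.3.3), with Benjamini-Hochberg adjustment. For *NeuroD1* over *Ngn3* that ratio entered as an added feature. All were tested on simulated data first. Samples of the same line share a donor and so are paired. Their deviations from the group means correlated across the 13 genes with r from -0.125 to 0.535. Named genes were both members, the 2 nearest to each, and fixed lists of endocrine and earlier-acting genes. The pairs of members with other genes were added later. The members and lists were chosen with earlier results of these data known. Sequences of both genes are not shown.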

Additional observations from a re-analysis of the deposited data

Results flagged for a closer look

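The *Gapdh* Ct of the IPCs, as the mean of the values that go with *Ngn3* and *NeuroD1*, was 26.8 cycles in line 2 and 27.0 cycles in each of the other lines. The gap between line 2 and the next value took up 0.873 of the range of the 4 samples, above the 95% limit of Dixon's test for 4 values. Chance gives such a gap in about 1 in 20 groups, and 12 groups were examined. Without line 2 the *Gapdh* shift was 5.16 cycles, against 5.12 with it.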

How the results depend on the processing

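*Ngn3*, *NeuroD1*, *NeuroD1* over *Ngn3* and the *Gapdh* shift kept their direction in every alternative that was run. *Ngn3* overlapped between the groups without a reference gene (1.23) and with the average Ct of the remaining genes in place of *Gapdh* (1.81). With the *Gapdh* values of *Glut2* and *Glp1r* the groups stayed separate at 4.23 (*Ngn3*) and 102 (*NeuroD1*). Those *Gapdh* values lay close to a whole number of cycles from those of *Glis3* and *MafA*, and why was not tested. Without a reference gene, and likewise with the remaining genes as reference, 9 of the 13 genes were separate, 3 higher and 6 lower, against 11 higher and 0 lower relative to *Gapdh*. Leaving out each line in turn gave 39.6 to 50.2 for *Ngn3*, 898 to 1022 for *NeuroD1*, 19.6 to 26.5 for *NeuroD1* over *Ngn3*, 5.09 to 5.16 cycles for the *Gapdh* shift and 11 to 12 separate genes, where 3 against 3 samples allow no exact p below 0.1. With the line as a replicate block, ratios within lines averaged 51.5 for *Ngn3*, 1018 for *NeuroD1* and 22.9 for *NeuroD1* over *Ngn3*, and the *Gapdh* difference stayed 5.12 cycles (exact sign-flip test, p = 0.125 each, the smallest for 4 pairs). In limma the block changed no call. Without lines 2 and 4, whose *Ngn3* Ct is identical in control and IPCs, a choice made after the data were seen, *Ngn3* was 63.5 and *NeuroD1* over *Ngn3* 18.3, where 2 against 2 samples allow no exact p below 0.333. Precision is limited by the 4 donors, the unknown number of wells and *Ngn3* signals near 34 cycles. It is also limited by the later *NeuroD1* signals of the controls, at 36.3 ± 0.658 cycles (SD, n = 4).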

Other observations

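The *NeuroD1* Ct of the line 1 control, 36.98 cycles, is also the Ct listed for *Insulin* and for *Glucagon* in that sample. Equal values of different genes in the same sample occur 3 times among the 624 pairs of day 13, and these genes account for all 3.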
